A study of Mus musculus with 24 samples.

Results

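The caveolin and cavin genes are the 5 mouse genes Cav1, Cav2, Cavin1, Cavin2 and Cavin3, taken by name from the 55487 genes of the count table. They were chosen by measured values of these libraries, because Cav2 mRNA was higher with MK-8722 and lower with torin1 than with DMSO in wild-type cells, so the values of those 2 contrasts are given here as a description and carry no test. The cells were mouse embryonic fibroblasts (MEFs), either wild-type (WT) or AMPK KO, which according to the study's methods lack both catalytic subunits of AMP-activated protein kinase, encoded by Prkaa1 and Prkaa2. Each genotype received the vehicle DMSO, the AMPK activator MK-8722, or torin1, which inhibits the kinase MTOR. This gave 6 groups of 4 libraries (WT DMSO, WT MK-8722, WT torin1, and the same 3 for AMPK KO). The labels give neither dose nor duration. The WT and AMPK KO cells were provided by another laboratory, and the labels do not say whether libraries of a group are separate cultures, so p values measure the spread between these libraries. WT libraries were at passages 12 to 15 and AMPK KO libraries at passages 16 to 19, with 1 library of each passage in every group, so that genotype, line and passage cannot be told apart.

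Caveolae are small flask-shaped pits of the plasma membrane that are abundant in fibroblasts, endothelium, adipocytes and muscle. Caveolin-1 (Cav1) is the integral membrane protein that builds their coat, and caveolin-2 (Cav2) is a partner that forms mixed oligomers with it. Cavin-1 (Cavin1) is a cytosolic coat protein needed for caveolae to form, while cavin-2 (Cavin2) and cavin-3 (Cavin3) join it as accessory coat proteins, the former linked to membrane curvature and the latter to protein kinase C signalling. Caveolae buffer membrane tension and take part in lipid uptake and receptor signalling.

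Cav2 (ENSMUSG00000000058) and Cav1 (ENSMUSG00000007655) are neighbours on the plus strand of chromosome 6, in GRCm38 at chr6:17281185-17289115 and chr6:17306335-17341452, with 17.2 kb and 0 annotated genes between them. Cavin1 (ENSMUSG00000004044) is at chr11:100956733-100970887 on the minus strand, Cavin2 (ENSMUSG00000045954) at chr1:51289126-51302960 on the plus strand and Cavin3 (ENSMUSG00000037060) at chr7:105480083-105482300 on the minus strand. All are protein-coding. Genes annotated on the other strand overlap Cav1 and Cav2 (Gm15581), Cavin2 (9330175M20Rik) and Cavin3 (Gm45667), and in no library did they have more than 1, 4 and 7 estimated counts, respectively.

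The RefSeq promoter table for GRCm38 held windows for 4 of the 5 genes. The 250 bases before the start are shown for Cav2, whose mRNA differed in opposite directions between the 2 drugs, for the 2 starts of Cav1, by which its transcripts are described below, and for Cavin2, the gene with the largest difference between genotypes among the 5. Capitals mark matches, on either strand, to 6 short motifs, namely the E-box CACGTG bound by TFEB and TFE3, the TEAD motif GGAATG, the AP-1 motif TGACTCA, the cAMP response element TGACGTCA, the TATA box TATAAA and the CCAAT box CCAAT.
Cav2, chr6:17280935-17281184, plus strand: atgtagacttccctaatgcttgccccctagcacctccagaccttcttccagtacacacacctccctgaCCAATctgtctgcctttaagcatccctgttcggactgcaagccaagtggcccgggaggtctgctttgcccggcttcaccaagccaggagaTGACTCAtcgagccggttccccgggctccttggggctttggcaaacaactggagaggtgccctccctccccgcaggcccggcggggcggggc
Cav1 upstream start, chr6:17306085-17306334, plus strand: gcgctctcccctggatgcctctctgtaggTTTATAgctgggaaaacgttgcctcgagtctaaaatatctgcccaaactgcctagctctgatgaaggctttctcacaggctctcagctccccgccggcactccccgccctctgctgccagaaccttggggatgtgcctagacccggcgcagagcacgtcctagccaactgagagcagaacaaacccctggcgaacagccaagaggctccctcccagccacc
Cav1 downstream start, chr6:17307390-17307639, plus strand, within an intron of the longer transcripts: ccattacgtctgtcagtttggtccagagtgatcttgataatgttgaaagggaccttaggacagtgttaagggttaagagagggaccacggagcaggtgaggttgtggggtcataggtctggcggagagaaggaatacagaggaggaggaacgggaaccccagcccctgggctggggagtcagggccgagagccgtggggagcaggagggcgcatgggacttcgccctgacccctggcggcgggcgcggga
Cavin2, chr1:51288876-51289125, plus strand: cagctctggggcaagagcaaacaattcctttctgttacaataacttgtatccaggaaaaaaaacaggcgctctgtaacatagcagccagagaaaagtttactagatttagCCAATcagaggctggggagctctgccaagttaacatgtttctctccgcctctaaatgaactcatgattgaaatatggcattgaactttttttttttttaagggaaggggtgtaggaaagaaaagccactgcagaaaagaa
The Cav2 window held TGACTCA from 92 to 86 bases before the start, a heptamer present in 4.46% of all 32851 windows of this length, and CCAAT from 182 to 178 bases before it. CCAAT was also in the Cavin2 window, from 140 to 136 bases before the start, and was the most widespread of the motifs, in 33.8% of all windows. The upstream Cav1 window held TATAAA on the other strand, 221 to 216 bases before the start (12.4% of all windows), and the downstream Cav1 window held none of the 6. CACGTG (6.02% of all windows), GGAATG (12.6%) and TGACGTCA (1.55%) were in none of the 4 sequences shown. The Cavin1 windows, which are not shown, held both GGAATG and CCAAT. For the start at chr11:100970617, GGAATG was on the other strand, 247 to 242 bases before the start, and CCAAT 63 to 59 bases before it. The GC content was 62% for Cav2, 59.6% and 60.8% for the upstream and downstream Cav1 windows and 40.4% for Cavin2, with 10, 10, 12 and 2 CpG dinucleotides. The medians over all windows were 52.4% and 6. A match is a description of the letters and not a site shown to be bound.

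Totals ranged from 26900240 to 34192685 estimated counts per library, and all 5 genes passed the filter on low counts that kept 15828 genes. Counts were lowest for Cav2 (324 to 1058 per library) and highest for Cavin1 (12777 to 42312). Of 10 fibroblast markers, 6 to 8 had a group mean of at least 1 CPM (counts divided by TMM-scaled library size) in every group, and their summed level was 11095 to 17097 CPM in WT and 4768 to 6833 CPM in AMPK KO libraries. Lum was at 0 in all libraries of every group but WT DMSO, and Thy1 had a mean of at least 1 CPM in the WT groups alone. Pdgfra reached that mean in WT torin1, AMPK KO DMSO and AMPK KO torin1 and in no other group. The summed markers of endothelium, adipocytes, skeletal muscle, epithelium and macrophages, other cell types rich or poor in caveolae, reached at most 8.8, 1.36, 4.67, 6.87 and 4.71 CPM in any library. Prkaa1 mRNA was 80.9 ± 2.0 CPM (SD, n = 4) in WT DMSO and 70.9 ± 2.95 in AMPK KO DMSO, and Prkaa2 mRNA was 4.74 ± 1.12 and 3.21 ± 0.97 CPM, so that transcripts of both targeted genes were counted in AMPK KO libraries and gene totals do not check the genotype labels.

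Levels of different genes were compared per length, in TPM, the abundance that Salmon scales for transcript length and depth. In WT DMSO the order was Cavin1 at 658 ± 38.0 TPM (SD, n = 4), Cav1 at 262 ± 12.7, Cavin2 at 225 ± 30.4, Cavin3 at 33.0 ± 0.449 and Cav2 at 15.6 ± 0.593. Cav1 (244 to 273 TPM) and Cavin2 (183 to 253) overlapped, and the other neighbours in this order did not. In AMPK KO DMSO the order was Cavin1 at 432 ± 29.3 TPM, Cav1 at 207 ± 28.3, Cavin3 at 32.6 ± 3.76, Cav2 at 25.3 ± 2.36 and Cavin2 at 15.2 ± 2.07, with no overlap between neighbours. Cavin2 thus stood next to Cav1 in the WT cells and last in the AMPK KO cells.

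With the drugs, the order of the means stayed as in DMSO of the same genotype except in AMPK KO torin1, and some neighbours overlapped. In WT torin1, Cavin1 (370 to 452 TPM) overlapped Cav1 (292 to 383). In AMPK KO torin1, Cav1 at 264 ± 3.49 TPM stood above Cavin1 at 249 ± 28.4, and their ranges overlapped (260 to 268 and 213 to 282). In WT MK-8722, Cav2 (21.4 to 23.7 TPM) and Cavin3 (23.6 to 30.4) met at their edges. In AMPK KO MK-8722, the same pair overlapped, at 19.1 to 27.9 TPM for Cav2 and 26.8 to 30.0 for Cavin3.

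**Figure D1:**
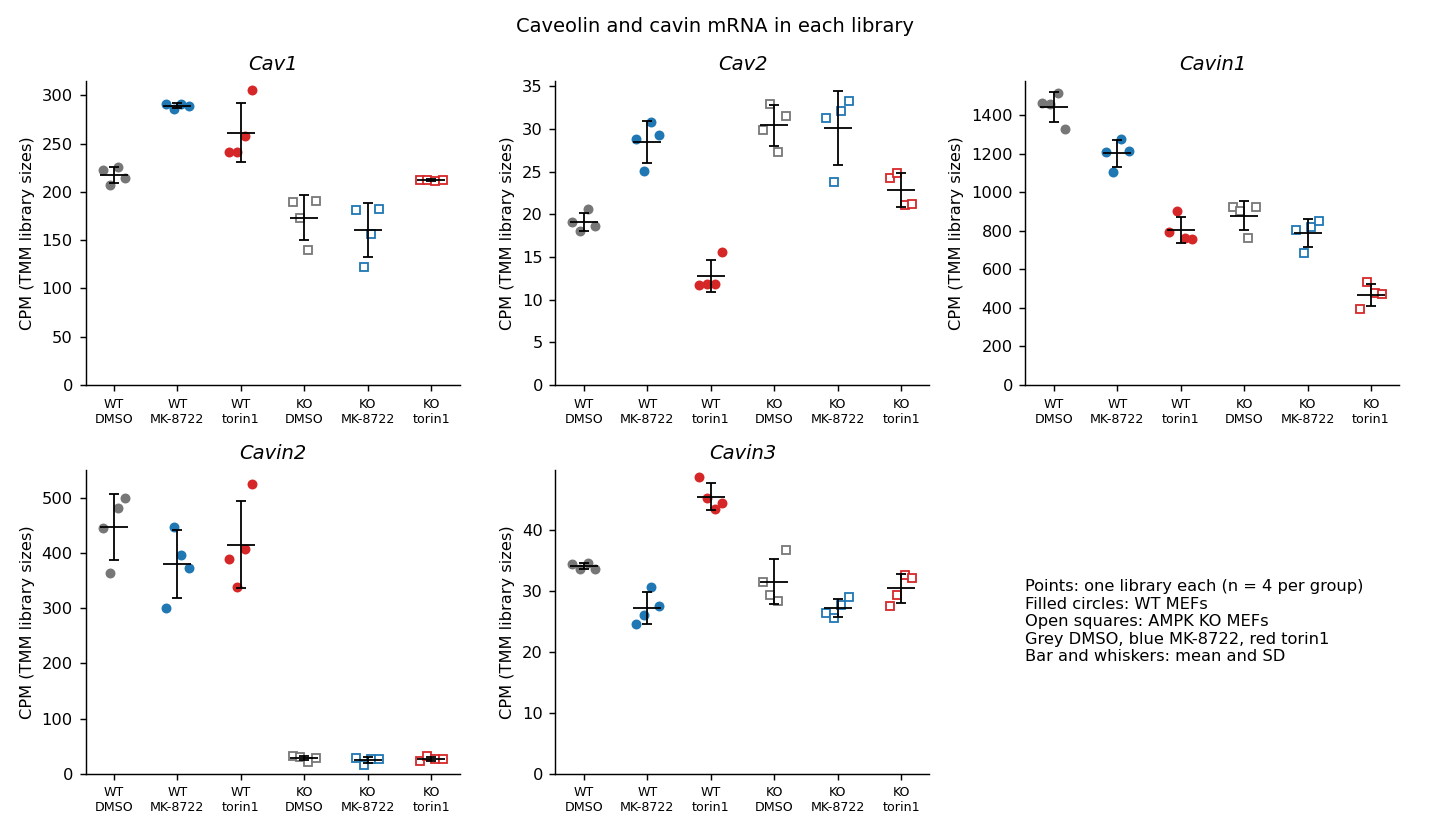
CPM (linear axis from 0) of each of the 5 genes in each of the 24 libraries, by group, with the mean and SD of 4 libraries as bar and whiskers. Cavin2 is at 299.8 to 526 CPM in the WT libraries and at 16.2 to 32.1 CPM in the AMPK KO libraries, and Cav2 is highest with MK-8722 and lowest with torin1 among the WT groups.

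Cav2, the partner of caveolin-1 in the caveolar coat, was the gene by which the group was picked. In WT DMSO its libraries had 19.2, 18.0, 20.6 and 18.7 CPM. In WT MK-8722 they had 28.9, 25.0, 30.8 and 29.3 CPM, all above every DMSO library. In WT torin1 they had 11.8, 11.9, 11.8 and 15.6 CPM, all below every DMSO library, with the library at 15.6 set apart from the other 3. The log2 difference from DMSO was 0.58 (SE 0.101) for MK-8722 and -0.58 (SE 0.105) for torin1, which corresponds to 1.49-fold higher and 1.5-fold lower levels. These are the values that chose the gene and are given without a test.

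In the AMPK KO libraries, which the choice did not use, Cav2 had 29.9, 33.0, 27.4 and 31.5 CPM in DMSO. With MK-8722 it had 31.4, 23.8, 32.2 and 33.3 CPM, a range that contained the DMSO libraries. With torin1 it had 24.3, 24.8, 21.1 and 21.2 CPM, all below every DMSO library. Cav2 fell by 0.41 on the log2 scale with torin1 in AMPK KO cells (SE 0.098, 95% interval -0.62 to -0.21, edgeR adjusted p = 0.00094). With MK-8722 in AMPK KO cells the log2 difference was -0.01 (95% interval -0.22 to 0.19, edgeR adjusted p = 0.97).

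Cav2 was higher in AMPK KO than in WT cells, at 30.4 ± 2.40 against 19.1 ± 1.09 CPM in DMSO, and no libraries overlapped. The log2 difference was 0.67 (SE 0.0998, edgeR adjusted p = 2.2e-06), a 1.59-fold higher level. Cav2 in AMPK KO DMSO (27.4 to 33.0 CPM) overlapped WT MK-8722 (25.0 to 30.8 CPM). The difference between the genotypes in the response to MK-8722, AMPK KO minus WT, was -0.59 (SE 0.14), and in the response to torin1 0.17 (SE 0.143). Both contain the WT contrasts used for the choice and are given without a test.

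Cav1, the main structural protein of caveolae, was above DMSO with MK-8722 in WT cells, as Cav2 was, and was above DMSO with torin1 too. The WT DMSO libraries had 223, 208, 226 and 214 CPM, and the WT MK-8722 libraries 291, 286, 291 and 289 CPM, all above DMSO. The WT torin1 libraries had 241, 241, 258 and 306 CPM, again all above DMSO. The log2 differences were 0.41 (SE 0.0979) with MK-8722 and 0.26 (SE 0.0978) with torin1, so that torin1 libraries had more Cav1 and less Cav2 than DMSO libraries of the same genotype. Without the WT torin1 library at 306 CPM the latter difference was 0.17.

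In AMPK KO cells, Cav1 had 189.7, 173, 140.2 and 191 CPM in DMSO and 182, 122, 157 and 182 CPM with MK-8722, and the groups overlapped. The AMPK KO torin1 libraries had 213, 213, 211 and 213 CPM, the narrowest spread of any group of the gene (SD 0.894). Cav1 rose with torin1 in AMPK KO cells by a log2 difference of 0.29 (SE 0.0981, edgeR adjusted p = 0.014). Of 8 fits with 1 library removed, 3 lost this call, namely those without the AMPK KO DMSO library at 140.2 CPM, at passage 16 (log2 difference 0.15, edgeR adjusted p = 0.17), and without AMPK KO torin1 replicate 2 or replicate 4 (0.24 each, with the adjusted p over 0.05). With MK-8722 the log2 difference was -0.11 (95% interval -0.31 to 0.09, edgeR adjusted p = 0.65).

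The response of Cav1 to MK-8722 differed between the genotypes. It was lower in AMPK KO than in WT by 0.52 on the log2 scale (difference of responses -0.52, SE 0.139, edgeR adjusted p = 0.011), a test that shares the WT MK-8722 and DMSO libraries with the contrast used to pick the genes. The direction and the call held in each of the 16 fits that left out 1 library, with values from -0.61 to -0.40. The responses of Cav1 to torin1 differed by 0.03 (95% interval -0.26 to 0.31, edgeR adjusted p = 0.94). In DMSO, Cav1 was lower in AMPK KO cells, at 173 ± 23.6 against 218 ± 8.43 CPM (log2 difference -0.33, SE 0.0982, edgeR adjusted p = 0.0048). Without the same passage 16 library the difference was -0.24 (edgeR adjusted p = 0.026), short of a 1.2-fold change, and with library size alone as the scaling it was -0.19 (adjusted p = 0.067).

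The ratio of Cav2 to Cav1 set both genes on a common scale. In WT it was 5.95 ± 0.402 Cav2 TPM per 100 Cav1 TPM in DMSO, 6.44 ± 0.387 with MK-8722 and 3.12 ± 0.487 with torin1 (SD, n = 4). In AMPK KO it was 12.3 ± 1.13, 13.2 ± 1.05 and 7.49 ± 0.662. The libraries of DMSO and MK-8722 overlapped within each genotype, those with torin1 lay below, and each AMPK KO group lay above all WT groups except for AMPK KO torin1, whose lowest library (6.65) fell within WT MK-8722 (6.08 to 6.89).

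**Figure D2:**
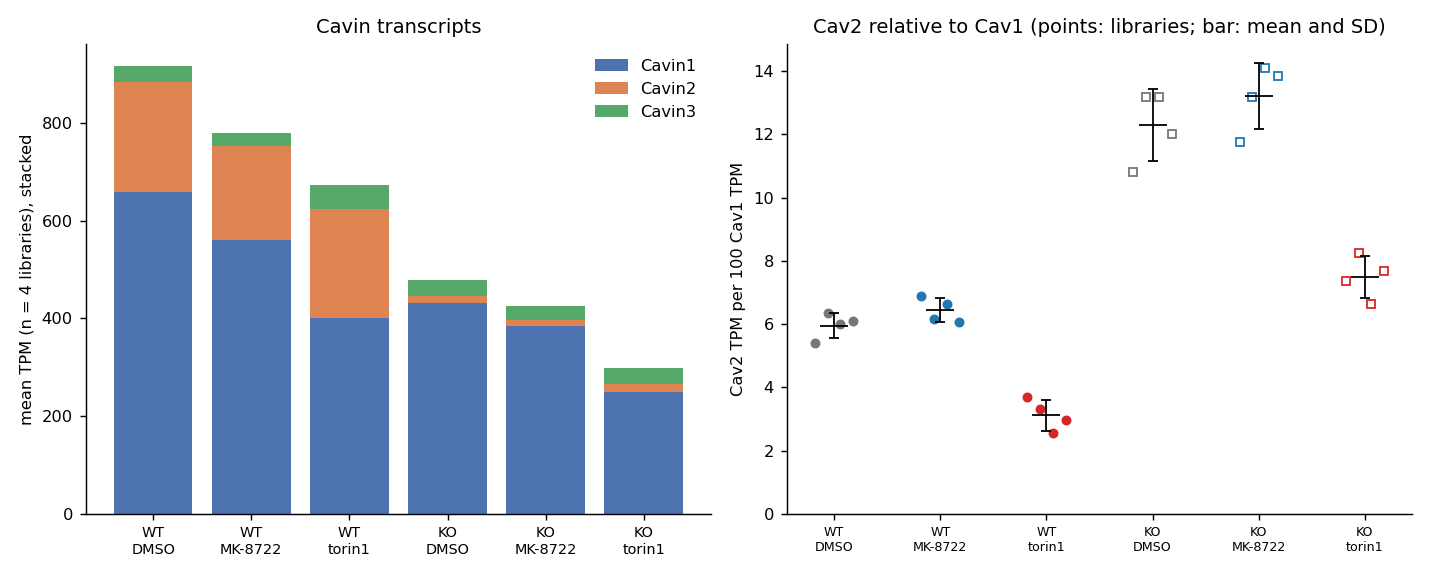
Left, mean TPM of Cavin1, Cavin2 and Cavin3 (n = 4 libraries a group) stacked on an axis from 0; right, Cav2 TPM per 100 Cav1 TPM in each library with mean and SD. The Cavin2 layer is 225 TPM in WT DMSO and 15.2 TPM in AMPK KO DMSO, and the Cav2 to Cav1 ratio is lowest with torin1 in both genotypes.

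Cavin1, the cavin without which caveolae do not form, was the most abundant of the 5 mRNAs in WT DMSO. Its libraries had 1465, 1458, 1514 and 1328 CPM in WT DMSO, 1208, 1106, 1276 and 1215 CPM in WT MK-8722 and 795, 904, 765 and 759 CPM in WT torin1. The 3 groups did not overlap and stepped down in that order. The log2 difference from DMSO was -0.26 (SE 0.0818) for MK-8722 and -0.84 (SE 0.0824) for torin1.

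In AMPK KO cells, Cavin1 had 921, 905, 765 and 924 CPM in DMSO and 804, 686, 821 and 852 CPM with MK-8722, with overlap. With torin1 it had 393, 532, 477 and 471 CPM, all below DMSO. Cavin1 fell with torin1 in AMPK KO cells by 0.91 on the log2 scale (SE 0.0826, edgeR adjusted p = 2.3e-09), and 444 of the 15828 genes tested had a larger fall. With MK-8722 the difference was -0.15 (95% interval -0.32 to 0.02, edgeR adjusted p = 0.37). With passage as a block it was still short of 1.2-fold but had an edgeR adjusted p of 0.018. Neither drug response differed between the genotypes beyond the spread, at 0.11 (95% interval -0.13 to 0.35, adjusted p = 0.59) for MK-8722 and -0.07 (95% interval -0.31 to 0.17, adjusted p = 0.78) for torin1. In DMSO, Cavin1 was 1.64-fold lower in AMPK KO than in WT (879 ± 76.2 against 1441 ± 79.3 CPM, log2 difference -0.71, SE 0.0822, edgeR adjusted p = 4.3e-08). Cavin1 in AMPK KO DMSO (765 to 924 CPM) overlapped WT torin1 (759 to 904 CPM).

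Cavin2, the accessory cavin linked to membrane curvature, separated the genotypes more than any other gene of the group. In WT it had 445, 363, 481 and 500.4 CPM in DMSO, 299.8, 448, 397 and 373 CPM with MK-8722 and 389, 339, 407 and 526 CPM with torin1, and the 3 groups overlapped. In AMPK KO it had 32.1, 29.9, 22.1 and 28.9 CPM in DMSO, 28.1, 16.2, 27.2 and 26.5 CPM with MK-8722 and 22.4, 31.7, 27.2 and 27.2 CPM with torin1, again with overlap. Every AMPK KO library was below every WT library, with 538 to 1057 estimated counts against 7701 to 16435. In DMSO, Cavin2 was 15.8-fold lower in AMPK KO (log2 difference -3.99, SE 0.174, 95% interval -4.35 to -3.63, edgeR adjusted p = 1e-15). Of the 15828 genes tested, 188 had a larger fall.

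Neither drug moved Cavin2 past the threshold in AMPK KO cells, with log2 differences of -0.21 for MK-8722 (95% interval -0.56 to 0.14, edgeR adjusted p = 0.61) and -0.06 for torin1 (95% interval -0.41 to 0.29, edgeR adjusted p = 0.79). In WT the corresponding differences were -0.24 (SE 0.15) and -0.11 (SE 0.15). With passage as a block, the MK-8722 difference in AMPK KO was still short of 1.2-fold but had an edgeR adjusted p of 0.044. The same passages recurred at some extremes of Cavin2 within a genotype, though its level did not rise or fall steadily with passage. The passage 12 library was the highest and the passage 13 library the lowest in all 3 WT groups, with mean deviations from the group of 0.26 and -0.30 on the log2 scale, and the passage 16 library was the lowest in all 3 AMPK KO groups (-0.39).

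As a share of the TPM of the 3 cavins, Cavin2 made up 24.6% ± 3.23 in WT DMSO and 3.16% ± 0.265 in AMPK KO DMSO (SD, n = 4). Cavin1 made up 71.8% ± 3.23 and 90.0% ± 0.42, and Cavin3 3.6% ± 0.0953 and 6.81% ± 0.543. With torin1, the Cavin2 share was 33.4% ± 5.77 in WT and 5.24% ± 0.0869 in AMPK KO, while the level of Cavin2 itself overlapped DMSO in both genotypes and that of Cavin1 was lower. The summed level of the fibroblast markers was also lower in AMPK KO libraries, as given above, though not every marker went that way. Their part in the Cavin2 difference was not tested. The markers of endothelium and adipocytes, other cells with abundant caveolae, summed to at most 8.8 CPM in any library, and the part of such cells was not tested either. In bulk RNA, fewer cells that express a gene and less RNA per cell cannot be told apart.

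Cavin3, the smallest gene of the group and the cavin linked to protein kinase C, stood above DMSO with torin1 in WT cells, where Cavin1 stood below it. The WT DMSO libraries had 34.5, 33.6, 34.7 and 33.6 CPM, those with MK-8722 24.6, 26.1, 30.7 and 27.5 CPM, and those with torin1 48.7, 45.3, 43.5 and 44.5 CPM. The groups did not overlap, with torin1 above and MK-8722 below DMSO. The log2 differences were -0.33 (SE 0.074) with MK-8722 and 0.41 (SE 0.0721) with torin1, the mirror image of Cav2 in sign.

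In AMPK KO cells, Cavin3 had 31.5, 29.4, 28.3 and 36.7 CPM in DMSO, 26.4, 25.6, 27.7 and 29.0 CPM with MK-8722 and 27.6, 29.4, 32.6 and 32.2 CPM with torin1, and both drug groups overlapped DMSO. The log2 difference was -0.05 with torin1 (95% interval -0.20 to 0.10, edgeR adjusted p = 0.59) and -0.21 with MK-8722 (95% interval -0.36 to -0.06, unadjusted p = 0.0079, edgeR adjusted p = 0.12). With passage as a block, the MK-8722 difference was still short of 1.2-fold but had an edgeR adjusted p of 0.0076. The response to torin1 was lower in AMPK KO than in WT by 0.46 on the log2 scale (difference of responses -0.46, SE 0.103, edgeR adjusted p = 0.0055), in a test that shares the WT libraries with the choice of the genes. The call held in each of the 16 fits without 1 library. The responses to MK-8722 differed by 0.11 (95% interval -0.10 to 0.33, edgeR adjusted p = 0.53). In DMSO, Cavin3 was at 31.5 ± 3.70 CPM in AMPK KO and 34.1 ± 0.542 CPM in WT (log2 difference -0.11, 95% interval -0.27 to 0.04, edgeR adjusted p = 0.17).

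**Figure D3:**
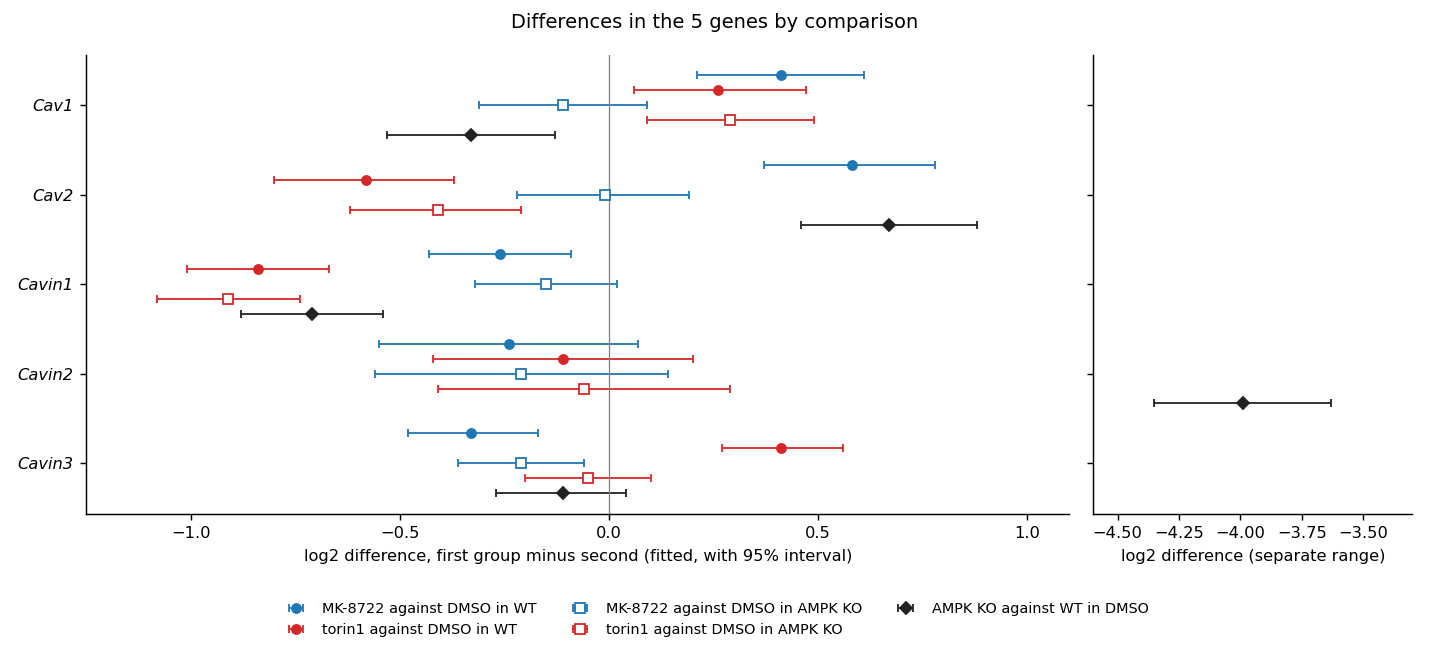
Fitted log2 differences (horizontal axis, first group minus second, with 95% intervals) of the 5 genes in the 5 comparisons of 2 groups, with the Cavin2 difference between genotypes, -3.99, in a panel of its own range. The WT drug contrasts (filled circles) chose the genes and carry no test, and the MK-8722 intervals in AMPK KO (open blue squares) include 0 for Cav1, Cav2, Cavin1 and Cavin2 but not for Cavin3.

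Across comparisons, the number of the 5 genes called (a 1.2-fold or larger change at an adjusted p below 0.05) can be set beside the share of all genes called. In the WT drug contrasts used to choose the genes, 3 of the 5 passed the same limits with MK-8722 and 4 with torin1, where 15.7% and 47.6% of all genes did, and nothing is read from these counts. In AMPK KO, 0 of the 5 were called with MK-8722 by edgeR (background 1.56%), with 1, Cavin3, at an unadjusted p under 0.05, and DESeq2 also called 0. Cavin1, Cavin2 and Cavin3 were each lower with MK-8722 than DMSO in 4 of 4 passages. With passage as a block their log2 differences were -0.15, -0.22 and -0.21, short of 1.2-fold, with edgeR adjusted p = 0.018, 0.044 and 0.0076. With torin1 in AMPK KO, 3 were called, Cav1 higher and Cav2 and Cavin1 lower (background 43.5%). Between genotypes in DMSO 4 were called, Cav2 higher and Cav1, Cavin1 and Cavin2 lower (background 56.9%). Read against these backgrounds, the counts of these 2 comparisons do not set the 5 genes apart. Libraries of the groups compared did not overlap for 4 of the 5 genes with either drug in WT (25.5% and 51.8% of all genes for MK-8722 and torin1), for 0 with MK-8722 in AMPK KO (11.7%), for 3 with torin1 in AMPK KO (53.8%) and for 4 between genotypes (64%). The interaction with genotype was called for Cav1 with MK-8722 (background 12.8%), and for Cavin3 with torin1 (background 7.07%), among the 4 genes other than Cav2. The drugs share the DMSO libraries of their genotype.

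The Cav1 transcripts fell into 2 sets by their start. There were 6 that start at chr6:17306335-17306423 and 4 that start at chr6:17307048-17307723, the latter including the transcripts that encode the shorter beta form of caveolin-1, which lacks the N-terminal end of the alpha form. This grouping was made after the values had been seen and carries no test. The downstream starts took 41.6, 40.8, 42.8 and 43.7% of Cav1 TPM in the WT DMSO libraries and 25.1, 23.04, 23.9 and 23.6% in the AMPK KO DMSO libraries, with no overlap. In TPM, the downstream set was 111 ± 7.29 in WT DMSO and 49.6 ± 7.52 in AMPK KO DMSO, while the upstream set was 151 ± 6.81 and 157 ± 21.1. The lower Cav1 level of AMPK KO cells in TPM (207 ± 28.3 against 262 ± 12.7 in DMSO) was therefore found in the downstream set in these estimates. TPM carry no TMM scaling, so the levels of both sets depend on that choice of scale, while the shares do not. The upstream sets of the 2 genotypes overlapped in DMSO. The largest part of the downstream set was Cav1-208, annotated as a processed transcript and not as protein-coding. It held 24.1% of Cav1 TPM in WT DMSO and 12.8% in AMPK KO DMSO. The protein-coding transcripts of the set also had lower mean shares in AMPK KO DMSO, for the longest 6.36% against 9.94%. The downstream level is thus not a measure of beta-form mRNA alone.

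With MK-8722 in WT, both sets were higher than in DMSO, at 209 ± 5.12 TPM upstream and 138 ± 4.57 TPM downstream, and the downstream share was 39.8% ± 0.518. With torin1 in WT, the upstream set was 212 ± 28.3 TPM and the downstream set 113 ± 13.5 TPM, a share of 34.8% ± 1.85. In AMPK KO the downstream share was 27.9% ± 2.7 with MK-8722 and 22.8% ± 2.13 with torin1, and all 12 AMPK KO libraries lay below all 12 WT libraries. Counted as estimated reads in place of TPM, the downstream share was 28.3% in WT DMSO and 16.1% in AMPK KO DMSO. Short transcripts that share most exons are divided by the estimation, so single-transcript values are uncertain.

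**Figure D4:**
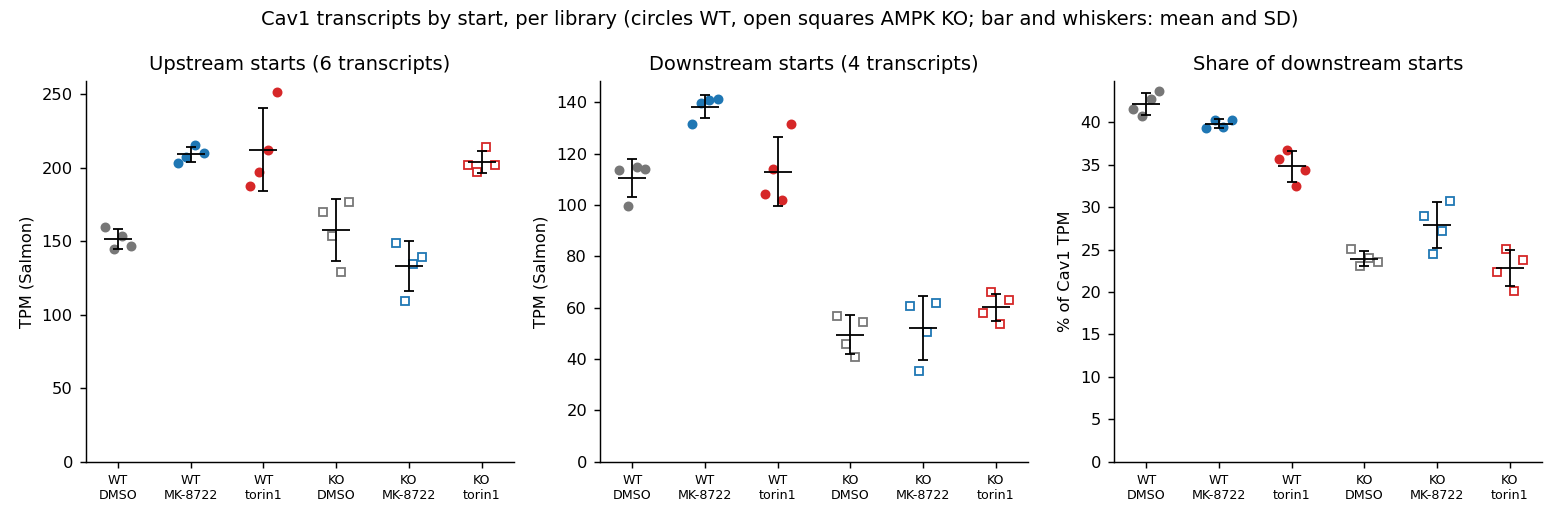
TPM (axes from 0) of the 6 upstream-start and the 4 downstream-start Cav1 transcripts in each library, and the share of the downstream starts in Cav1 TPM in percent, with mean and SD of 4 libraries. The upstream panel has overlapping DMSO groups (144.8 to 159.8 TPM in WT and 129 to 177 TPM in AMPK KO), the downstream panel does not (99.6 to 115 and 40.7 to 56.9 TPM).

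Single transcripts with at least 10% of their gene's TPM in any group were tested where a gene had more than 1 of them, 4 of Cav1 and 3 of Cav2, in the 3 comparisons that the choice did not use, giving 21 exact permutation tests whose smallest possible p is 0.0286. Between genotypes in DMSO, the share of Cav1-201 was higher in AMPK KO by 7.69 percentage points, that of Cav1-205 by 3.42 and that of Cav1-204 by 6.74, and that of Cav1-208, a processed transcript of the downstream set, was lower (difference -11.3 points). Each had an exact two-sided permutation p of 0.0286 and an adjusted p of 0.12. The share of Cav1-208 was also lower with torin1 in AMPK KO (-2.33 points, the same exact p and adjusted p). None of the 21 tests, among them the 9 of Cav2 transcripts, passed after adjustment. Even tests at the smallest possible p had an adjusted p of 0.12. With 4 libraries a group these tests could hardly pass, and nothing is read from their not passing. Cavin1-201 held 93.5 to 95.1% of Cavin1 TPM as group means, and Cavin2 and Cavin3 have 1 annotated transcript each, so these 3 genes were not tested.

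Over the 24 libraries, the genes most like Cav2 in log2 CPM, of 10054 with a mean of at least 5 CPM, were Larp4, an RNA-binding protein (Pearson r = 0.97), Myef2 (0.96), Fam49b (0.95), Vma21, an assembly factor of the vacuolar proton pump (0.95), and Rc3h2, an RNA-binding protein of the roquin family (0.95). The least like were the transcription factor Sall2 (-0.95), Marveld1 (-0.93) and Zfp395 (-0.92). Larp4, for example, had group means of 164.7, 215 and 115 CPM in WT DMSO, MK-8722 and torin1 and of 209, 227 and 180.4 CPM in AMPK KO. These are descriptions over libraries that share groups, and the genes were ranked by the same measure.

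Over the 24 libraries pooled, none of the other caveolin and cavin genes followed Cav2, though Cavin1 did so within each genotype. The pooled and the WT values contain the WT Cav2 levels used in the choice and are a description. The Pearson r with Cav2 over 24 libraries was -0.35 for Cav1, 0.03 for Cavin1, -0.56 for Cavin2 and -0.82 for Cavin3. Within the 12 libraries of a genotype, r was 0.41 in WT and -0.24 in AMPK KO for Cav1, 0.64 and 0.87 for Cavin1, -0.12 and 0.34 for Cavin2, and -0.92 and -0.07 for Cavin3. The low overall value for Cavin1 thus stood beside high values within each genotype, Cav2 being higher and Cavin1 lower in AMPK KO.

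Of 12 accessory proteins of caveolae, 11 were tested, since the muscle caveolin Cav3 had at most 2 counts in any library. With torin1 in AMPK KO, 2 rose and 6 fell (72.7% called, all genes 43.5%; median log2 difference -0.29, all genes 0.06), and in WT 1 rose and 6 fell (63.6% called, all genes 47.6%; median -0.36, all genes 0.04). Cavin4, a cavin known from muscle and of low level here, went from 6.02 CPM in DMSO to 2.58 with torin1 in WT, a fall past the threshold (log2 difference -1.22, SE 0.146, edgeR adjusted p = 1.3e-07) and from 2.88 to 1.48 CPM in AMPK KO (-0.96, SE 0.159, adjusted p = 1.6e-05). Flna, the actin crosslinker filamin A, to which caveolae are tethered, rose with torin1 in AMPK KO from 2493 to 3071 CPM (0.30, SE 0.0561, adjusted p = 7.1e-05). In WT it was also higher with torin1, short of 1.2-fold (0.25, SE 0.0561, adjusted p = 4e-04). Ehd3, a membrane-remodelling ATPase, rose with torin1 in WT from 2.21 to 3.11 CPM (0.48, SE 0.144, adjusted p = 0.0058). The responses to torin1 were not called as different between genotypes for Flna (0.05, SE 0.0792, adjusted p = 0.78) or Ehd3 (-0.40, SE 0.179, adjusted p = 0.17).

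With MK-8722, 2 of the 11 (18.2%, all genes 15.7%) fell in WT, the ATPases Ehd2, which sits at the neck of caveolae, from 316 to 243 CPM (log2 difference -0.38, SE 0.0732, edgeR adjusted p = 0.00034), and Ehd4, from 74.6 to 57.0 CPM (-0.39, SE 0.0685, adjusted p = 0.00013). In AMPK KO, edgeR called 0 of the 11 (all genes 1.56%), with 3 at an unadjusted p under 0.05, and DESeq2 called 1. The response of Ehd4 to MK-8722 differed between genotypes (0.44, SE 0.0951, adjusted p = 0.0023). For Ehd2, named after its values had been seen, this difference was not called (0.22, SE 0.104, adjusted p = 0.15). Ehd2 also fell with torin1, in WT (-0.37, SE 0.0731, adjusted p = 1e-04) and in AMPK KO (-0.33, SE 0.0738, adjusted p = 0.00054). Between genotypes in DMSO, 5 were higher and 5 lower in AMPK KO (90.9% called, all genes 56.9%; median 0.05, all genes 0.02). Among these were Pacsin1, a membrane-bending protein, at 0.989 against 0.125 CPM (2.98, SE 0.426, adjusted p = 1.2e-06), and Cavin4, at 2.88 against 6.02 CPM (-1.06, SE 0.144, adjusted p = 6.1e-07). Ehd2 was also lower in AMPK KO, at 174.5 against 316 CPM (-0.86, SE 0.0737, adjusted p = 2.9e-10).

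The 19 genes of clathrin coats, flotillin rafts and dynamins were all tested. With torin1, 2 rose and 4 fell in WT, and 4 rose and 5 fell in AMPK KO (medians -0.05 and -0.03). The shares called were 31.6% and 47.4%, below and near the 47.6% and 43.5% of all genes. The clathrin light chain Cltb fell in both genotypes (-0.69 and -0.75, SE 0.0414 and 0.0408, edgeR adjusted p = 1.5e-12 and 8.7e-13), and Fcho1, an early factor of clathrin pits at low level, rose (2.10 and 1.45, adjusted p = 0.00025 and 7.5e-07). With MK-8722, 3 rose and 1 fell in WT (21.1% called, all genes 15.7%; median -0.03, all genes 0.00), with the largest rise in the raft protein Flot1 (0.41, SE 0.0664, adjusted p = 5.5e-05) and the fall in the clathrin adaptor Epn2 (-0.33, SE 0.056, adjusted p = 1e-04). In AMPK KO, edgeR and DESeq2 each called 0 of the 19 (all genes 1.56% by edgeR), with 0 at an unadjusted p under 0.05. The response of Flot1 to MK-8722 differed between genotypes (-0.31, SE 0.0941, adjusted p = 0.023). In DMSO 4 were higher and 5 lower in AMPK KO (47.4% called, all genes 56.9%; median -0.17), from Fcho1 at 4.14 against 0.115 CPM (5.05, SE 0.331, adjusted p = 2e-12) to the clathrin assembly protein Picalm at 159.5 against 224 CPM (-0.49, SE 0.0519, adjusted p = 1e-08).

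Of 15 signalling and lipid-uptake partners of caveolin, 14 were tested, the fatty acid carrier Cd36 having too few counts. Between genotypes in DMSO, 1 was higher and 10 were lower in AMPK KO (78.6% called, all genes 56.9%; median -0.46, all genes 0.02). The growth factor receptor Egfr was the one higher, at 39.4 against 15.3 CPM (1.36, SE 0.117, edgeR adjusted p = 2.7e-10). With torin1, 4 rose and 3 fell in each genotype, 50% of the list where 47.6% and 43.5% of all genes were called in WT and AMPK KO. Egfr rose from 15.3 to 39.5 CPM in WT (1.37, SE 0.117, adjusted p = 5.6e-10) and from 39.4 to 71.5 CPM in AMPK KO (0.86, SE 0.108, adjusted p = 3.6e-07), with responses that differed (-0.51, SE 0.159, adjusted p = 0.044), as did those of Bmpr2, a receptor of bone morphogenetic proteins (0.36, SE 0.0537, adjusted p = 2e-04).

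With MK-8722, 4 of the 14 partners (28.6%, all genes 15.7%) rose in WT and 0 fell, with the largest rise in Pdgfrb, a receptor for platelet-derived growth factor that is also a fibroblast marker (0.40, SE 0.132, edgeR adjusted p = 0.024). In AMPK KO 1 rose (7.14%, all genes 1.56%), the kinase Fyn, from 81.0 to 105 CPM (0.38, SE 0.099, edgeR adjusted p = 0.042).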

How the data were processed

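Poly(A) RNA of 24 MEF libraries had been sequenced as short paired-end reads, which the authors ran through nf-core/rnaseq, with STAR and Salmon on GRCm38 and molecular identifiers. The deposited values are estimated counts per gene, with no normalization, and per transcript estimated counts, effective lengths and TPM. The gene values of the 5 genes equalled the sums of their transcripts. Groups came from the deposited labels. Estimated counts were rounded and filtered (filterByExpr), TMM scaling was applied, and edgeR 4.0.16 (R 4.3.3) fitted quasi-likelihood models with 1 mean for each of the 6 groups. All tests were two-sided. Each of 7 comparisons was adjusted by Benjamini-Hochberg over 15828 genes. A call needed a 1.2-fold or larger change at an adjusted p below 0.05. CPM use TMM library sizes, log2 CPM a prior count of 2. Totals of 26900240 to 34192685 estimated counts per library set the depth.

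Transcript shares were compared with exact permutation tests (scipy 1.17.1). The 5 genes and the 3 gene lists were chosen with earlier results of these data known. Named beside the 5 genes were the targeted genes, in each list and comparison the call with the most positive and that with the most negative log2 difference, and the 5 most and 3 least Cav2-like genes. Ehd2 was named after its values had been seen, and 1 gene that the rule names is not reported here. The fit was tested on simulated counts. Alternatives were other scalings and filters, an offset for effective length, blocks for passage or replicate number, other thresholds, DESeq2 1.42.0, and leaving out libraries. Positions are from GENCODE and promoters from RefSeq, both for GRCm38.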

Additional observations from a re-analysis of the deposited data

Results flagged for a closer look

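Of the 30 sets of 4 libraries (5 genes in 6 groups), 4 held a library far from the other 3 by Dixon's ratio of gap to range, a test that marks about 1 in 20 sets by chance. Cav2 was at 15.61 CPM in WT torin1 replicate 4 (ratio 0.969), above the other 3 libraries of that group, and the same library was also the highest of its group in Cav1 and Cavin2. Without it, the log2 difference of Cav2 between torin1 and DMSO in WT was -0.70. Cavin1 was at 765.19 CPM in AMPK KO DMSO replicate 3 (ratio 0.88), and Cavin2 at 16.19 CPM in AMPK KO MK-8722 replicate 2 (ratio 0.868), both the passage 16 library of their group and both below the rest. Cav1 was at 210.98 CPM in AMPK KO torin1 replicate 3 (ratio 0.832), in a group whose whole range was 211 to 213 CPM.

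Among the genes other than Cav2, the response to a drug differed between the genotypes for 2. These tests share the WT libraries with the choice of the genes. The differences of Cav2 are given above without a test. For Cav1 the response to MK-8722, AMPK KO minus WT, was -0.52 on the log2 scale, from 173 to 161 CPM in AMPK KO and from 218 to 289.5 CPM in WT. For Cavin3 the response to torin1 differed by -0.46, from 31.5 to 30.4 CPM in AMPK KO and from 34.1 to 45.5 CPM in WT.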

How the results depend on the processing

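At a fold change of at least 1.5 in place of 1.2, the number of the 5 genes called was 0 with MK-8722 in WT, 1 with torin1 in WT, 1 with torin1 in AMPK KO, 1 for the interaction of MK-8722 with genotype and 0 for that of torin1, the fewer calls following from the stricter threshold. Between genotypes in DMSO, Cav2 (1.59-fold), Cavin1 (1.64-fold) and Cavin2 (15.84-fold) stayed called. The share of all genes called at 1.5-fold was not computed, so nothing is read from these counts. Counts for the WT contrasts, and Cav2 in the counts for the MK-8722 interaction, describe values used in the choice of the genes. Leaving out 1 library at a time gave 3 to 4 calls with MK-8722 in WT, 3 to 4 with torin1 in WT, 0 with MK-8722 in AMPK KO, 2 to 3 with torin1 in AMPK KO, 3 to 4 between genotypes, 2 for the interaction with MK-8722 and 1 for that with torin1. In none of the settings tried did a called gene change direction.

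Among tested calls, that threshold removed Cav1 in its 3 comparisons, Cav2 with torin1 in AMPK KO and the Cavin3 interaction with torin1. Under the other settings only calls of Cav1 were lost. With torin1 in AMPK KO it missed the call with an offset for effective length (log2 difference 0.24, edgeR adjusted p = 0.051), with only the compared libraries in the fit (0.25, short of 1.2-fold) and without the 3 passage 16 libraries (0.15, adjusted p = 0.077), a setting chosen after the data had been seen. Between genotypes it missed it under the last setting too (-0.24, short of 1.2-fold). With library size alone the median log2 difference of all genes was 0.14 with torin1 in WT, 0.12 with torin1 in AMPK KO and 0.15 between genotypes, against 0.04, 0.06 and 0.02 with TMM, and Cav1 between genotypes missed the call (-0.19, adjusted p = 0.067). The cause of these moves was not tested.

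With a replicate block the counts were 3, 3, 0, 3, 4, 2 and 1 in the order used above, and the main counts were 3, 4, 0, 3, 4, 2 and 1. Replicate numbers did not pair the libraries (median correlation of deviations 0.01 within a genotype, other pairs -0.01, with 4 of 24 pairs over 0.1). Passage paired them in part (median 0.13, other pairs -0.04, with 15 of 24 pairs over 0.1), and the main fit has no term for it. Passage as a block gave 3 calls with torin1 in WT and the main counts elsewhere. Passage as a block was not run between genotypes, which share no passage.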
